A study of Mus musculus with 10 samples.

Results

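The genes of peroxisome biogenesis and peroxisomal lipid metabolism were examined as 30 genes, 12 peroxins and 18 transporters and enzymes, in gastrocnemius muscle of D257A and WT mice. They were taken by name: every probe set whose annotation gives exactly 1 of the 30 symbols was a member, which gave 59 of the 45101 probe sets on the array and 30 of 18194 named genes. The D257A group was 5 male mice, 13 months old, homozygous for PolgD257A, a germline knock-in that impairs proofreading by Polg, the polymerase that copies mitochondrial DNA. The WT group was 5 male Polg+/+ mice of the same age, and both came from a mixed 129Sv/ICR/B6 background backcrossed into C57BL/6J. Each mouse gave 1 Affymetrix Mouse Genome 430 2.0 array of whole muscle, and every tissue carries the allele, so no cell type is singled out by the model. The study asked how mutations of mitochondrial DNA alter gene expression in muscle that loses mass.

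Peroxisomes are small organelles bounded by a single membrane. Their proteins are made in the cytosol and brought in by peroxins: receptors bind the cargo, a docking complex takes it through the membrane, and a RING finger and ATPase machinery returns the receptor to the cytosol. Inside, very long-chain and branched fatty acids are shortened by alpha- and beta-oxidation, ether lipids are begun, and the shortened chains leave for the mitochondria, which in muscle burn most fatty acid. Many genes of this organelle are targets of the nuclear receptor Ppara in liver.

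In D257A mice 3 of the 30 genes fell and 0 rose, where 3.52% of all 11215 tested genes fell and 3.71% rose. They were Abcd3, a transporter of the peroxisomal membrane, Pxmp2, a channel protein of the same membrane, and Phyh, the first enzyme of the alpha-oxidation of phytanic acid. Among the peroxins 0 of 12 genes fell when each gene was read from its brightest probe set. The dimmer of the 2 tested probe sets of Pex11a, a protein of peroxisome elongation and division, fell by 0.95 on the log2 scale. Over all 10 mice these 2 were nearly equal (mean log2 9.20 and 9.25). In WT mice the one that fell was the brighter (mean signals of 823.0 and 696.7), so the 0 of 12 rests on a near tie. The fall of each of the 4 was larger than the spread between mice, by limma with Benjamini-Hochberg adjustment over all 22518 probe sets tested. With the first digit of the mouse numbers as a block, a digit whose meaning is not stated, the Pex11a call held and those of the 3 genes did not. Every D257A mouse is numbered 2, so that fit compares the genotypes only through the WT mice also numbered 2. The call of Pxmp2 was lost under 12 of 21 alternatives.

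The promoters of Phyh, Abcd3 and Pex11a are shown because these are called members with a promoter entry in the RefSeq table (GRCm38.p6). Each is 300 bases, 5′ to 3′ on the strand of the gene, and the capitals mark a match on the opposite strand to AGGTCA, the half-site bound by PPAR and RXR receptors.
Phyh, chr2:4918746-4919045, plus strand: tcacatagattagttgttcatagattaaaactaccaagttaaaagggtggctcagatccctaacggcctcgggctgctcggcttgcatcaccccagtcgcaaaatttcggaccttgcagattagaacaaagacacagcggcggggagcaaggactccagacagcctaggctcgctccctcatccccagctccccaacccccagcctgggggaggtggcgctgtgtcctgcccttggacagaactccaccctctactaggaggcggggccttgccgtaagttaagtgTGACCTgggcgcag
Abcd3, chr3:121815253-121815552, minus strand: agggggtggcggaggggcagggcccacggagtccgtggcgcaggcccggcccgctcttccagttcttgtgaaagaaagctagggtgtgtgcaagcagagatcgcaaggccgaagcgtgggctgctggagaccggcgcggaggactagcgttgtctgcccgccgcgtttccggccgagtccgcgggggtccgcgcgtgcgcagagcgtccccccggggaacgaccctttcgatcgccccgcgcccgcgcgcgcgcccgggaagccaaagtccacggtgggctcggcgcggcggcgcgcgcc
Pex11a, chr7:79743082-79743381, minus strand: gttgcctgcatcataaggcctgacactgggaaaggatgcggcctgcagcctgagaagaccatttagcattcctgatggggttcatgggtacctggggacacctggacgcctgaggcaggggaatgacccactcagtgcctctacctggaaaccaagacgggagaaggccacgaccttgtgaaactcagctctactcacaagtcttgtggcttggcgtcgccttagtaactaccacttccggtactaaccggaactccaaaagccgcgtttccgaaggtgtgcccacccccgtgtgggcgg
The match in Phyh begins at base 287 of the 300, past the start site. Abcd3 has a second start site, whose promoter of 76.3% GC is not shown. Both strands were searched for 4 motifs over the 27 promoters of the 23 members in the table. AGGTCA was present in 2 of them (Phyh and Scp2) and in 16.3% of all 32851 promoters. Its direct repeat, AGGTCA and AGGTCA with any base between them, which holds the half-site, was in 0 of 27 and in 0.0396% of all. The palindromic core bound by Nrf1, GCGC and GCGC around AT, was in 0 of 27 and in 0.971% of all. CACGTG, an E-box bound by USF factors, was in 1 (Gnpat) and in 7.15% of all. A match is a stretch of letters and not a bound site.

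All signals are the deposited values after each array was scaled to a common trimmed mean of 500. Of the 59 member probe sets, 51 passed a filter on mean signal and were tested, 23 of peroxins and 28 of transporters and enzymes, and the brightest probe set of each of the 30 genes was among them. The filter takes the mean over all 10 mice and not the genotype. The other 8, dimmer probe sets of Pex16, Abcd2, Abcd3, Abcd4, Acox3, Crot, Pecr and Agps, had mean log2 signals of 1.78 to 6.21. Probe sets were called lower or higher at a limma adjusted p under 0.05. Of the 51, 4 were called lower and 0 higher, where 3.74% of all tested probe sets were called lower and 3.64% higher. The methods' t-test, an equal-variance test on the same values, gave 16 member probe sets at an unadjusted p under 0.05, 12 lower and 4 higher, and 4 after adjustment. By limma 12 were lower and 2 higher unadjusted. The share of all tested probe sets at an unadjusted p under 0.05 is not given. The unadjusted counts, here and below, thus have no whole-array share to be set against.

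The tissue label was checked against marker genes, since 1 line of the extraction protocol speaks of cochlea. All 8 muscle markers were above the filter, with summed signals of 392662.5 to 429906.1 in D257A mice and 358003.0 to 470757.1 in WT mice, and 1 of them, the myoglobin gene Mb, was called lower (-0.35, limma adjusted p = 0.0353). Of 9 cochlear markers, 5 lay below it (Tecta, Tectb, Otoa, Slc26a5 and Oc90), and the summed signal was 354.2 to 637.8 in D257A mice and 446.9 to 610.8 in WT mice. In whole muscle, fewer cells of a type and less RNA per cell cannot be told apart. Of the cells between the fibres, 3 of 6 fibroblast markers (Col1a1, Col1a2, Col3a1), all collagen genes, were called lower. The sums were 20754.2 to 24679.7 in D257A mice and 20819.4 to 34094.1 in WT mice. Dcn (-0.08), Lum (-0.48) and Pdgfra (-0.04) were not called, each on its brightest probe set. Dcn made up most of each sum, with a D257A mean signal of 18049.6 and a WT mean of 19137.2. Of 7 macrophage markers, 2 (Lyz2, Mrc1) were called higher, with sums of 6195.7 to 9142.5 and 5360.9 to 6918.3, while Itgam was below the filter. Of the 5 adipocyte markers measured 1 (Retn, log2 difference 1.18) was called higher, with sums of 20549.1 to 30603.4 and 14909.6 to 27671.3. Not called were Lep (-1.18, limma adjusted p = 0.165), Cidec (-0.27), Adipoq (0.30) and Fabp4 (0.43), each on its brightest probe set. Fabp4 made up most of each sum, with a D257A mean signal of 23457.6 and a WT mean of 17549.0. Endothelial markers (sums of 4443.1 to 5317.1 and 4190.4 to 5210.9) and slow fibre markers (82298.1 to 125835.7 and 62083.3 to 110444.2) had 0 called by limma of 6 and 7 (1 and 2 higher at an unadjusted p under 0.05, 1 and 0 by the methods' t-test). The part of these cells in the results on the members was not tested. WT mouse 1-13M had the lowest sums of all 10 mice on the muscle, slow fibre and adipocyte lists (358003.0, 62083.3 and 14909.6) and the lowest WT sum on the fibroblast list (20819.4). Without it, 3428 instead of 1662 probe sets of the whole array were called.

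Values of single mice are given in the order of D257A mice 2-17M, 2-21M, 2-25M, 2-27M and 2-30M and of WT mice 1-12M, 1-13M, 2-3M, 2-32M and 3-18M. The ATP-binding cassette transporters carry fatty acyl chains into the peroxisome. Abcd3, which takes up branched and dicarboxylic acyl chains and bile acid precursors, had signals of 3597.6, 3295.6, 3739.7, 3438.9 and 3795.3 in D257A mice and 5440.9, 4684.2, 4741.9, 5007.6 and 5546.0 in WT mice. Every D257A mouse lay below every WT mouse. The means were 3573.4 ± 207.8 and 5084.1 ± 394.8 (SD, n = 5 each), a log2 difference of -0.51 (standard error 0.09, limma adjusted p = 0.00573). Among the mice whose number starts with 2, all 5 D257A mice and 2 WT mice, the difference was -0.45 (limma adjusted p = 0.0239). With that digit as a block the call was lost (-0.45, limma adjusted p = 0.0700). The other digits occur only in WT mice, so the block takes the genotype difference from the same 5 D257A and 2 WT mice. The estimates of the 2 fits are thus equal by design. A call lost with the block does not separate the digit from the smaller number of WT mice compared.

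Abcd2, which carries very long-chain and polyunsaturated acyl chains, was not called, and its 3 tested probe sets had log2 differences of 0.22, 0.13 and 0.36. These rested on WT mouse 1-13M. On the brightest probe set it had 358.1, where the other WT mice had 1032.5 to 1397.4 and D257A mice 725.2 to 1474.1, and on the dimmest of the tested ones it had 76.29, where the other WT mice had 358.9 to 593.0. Without that mouse the 3 differences were -0.13, -0.02 and -0.17. Abcd4, a relative that acts in lysosomal cobalamin export, had a log2 difference of 0.30 (95% interval -0.12 to 0.72, limma adjusted p = 0.376).

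Pxmp2, which forms a channel for small solutes, had signals of 2236.9, 2465.5, 2244.3, 2134.2 and 2192.9 in D257A mice and 3269.3, 3087.0, 2820.0, 2736.6 and 2789.7 in WT mice. The genotypes did not overlap. The means were 2254.8 ± 125.7 and 2940.5 ± 228.2 (SD, n = 5 each), a log2 difference of -0.38 (standard error 0.10, limma adjusted p = 0.0314). This call was the least stable of the 4 and was lost under 12 of 21 alternatives. Among these were the fits that left out D257A mice 2-17M, 2-25M, 2-27M and 2-30M and WT mice 1-12M, 2-3M and 2-32M in turn (limma adjusted p from 0.0546 to 0.0891), the fit to mice numbered 2 (-0.30, limma adjusted p = 0.115) and the digit block (-0.30, limma adjusted p = 0.192). Pxmp4, another membrane protein, had differences of -0.22 and -0.03 on its 2 probe sets and was not called.

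**Figure D1:**
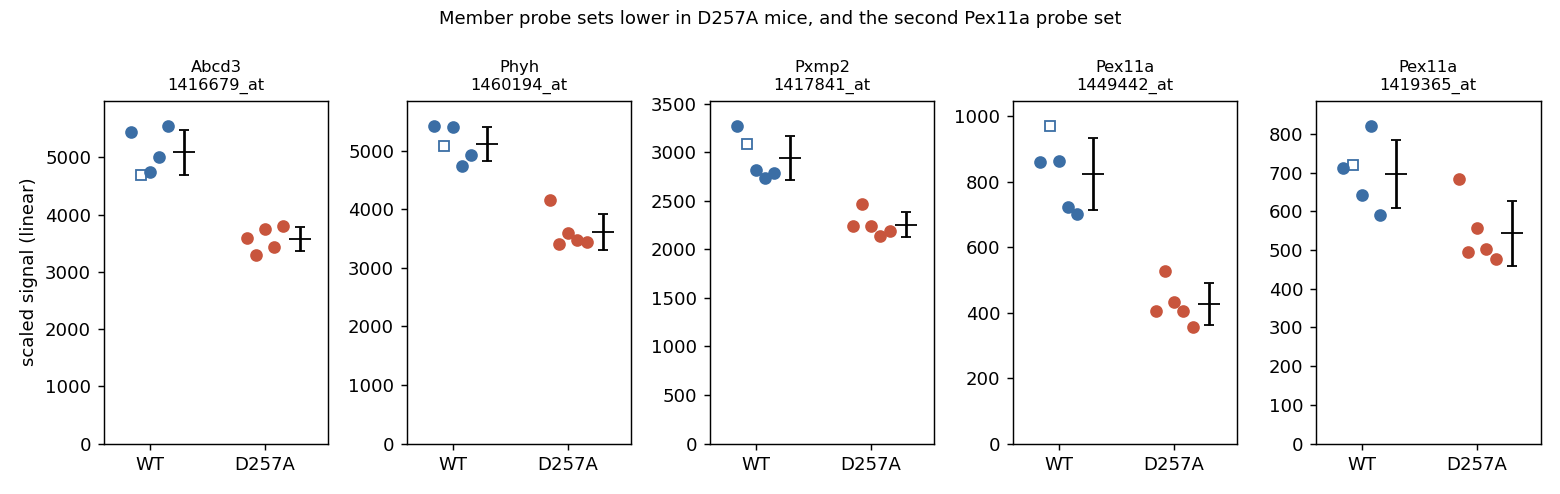
Scaled signal on a linear axis from 0 in each of 5 WT and 5 D257A mice for the 4 member probe sets called lower in D257A mice and for the brighter Pex11a probe set. Points are mice, the open square is WT mouse 1-13M, and the bars are mean and SD. The genotypes are separate in the first 4 panels and overlap in the last.

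Alpha-oxidation removes 1 carbon from chains whose methyl branch blocks beta-oxidation. Phyh, the hydroxylase that begins it and whose promoter is shown above, had signals of 4151.9, 3409.4, 3599.4, 3479.1 and 3447.2 in D257A mice and 5421.4, 5077.3, 5401.5, 4744.6 and 4929.8 in WT mice. The highest D257A mouse, 2-17M, was below the lowest WT mouse. The means were 3617.4 ± 307.1 and 5114.9 ± 295.3 (SD, n = 5 each), a log2 difference of -0.50 (standard error 0.09, limma adjusted p = 0.00635), and among mice numbered 2 it was -0.49 (limma adjusted p = 0.0262). With the digit as a block the call was lost (-0.49, limma adjusted p = 0.0635). Hacl1, the lyase that later cleaves the hydroxylated chain, had a log2 difference of -0.03 (95% interval -0.33 to 0.28). The difference between the 2 genes was not tested.

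In the 8 genes grouped here under beta-oxidation 0 were called in either direction by limma (1 lower and 1 higher at an unadjusted p under 0.05, 2 and 2 by the methods' t-test). Amacr, the racemase that turns branched chains into the form that can be oxidised, had signals of 1065.8, 1183.0, 1142.7, 1154.0 and 1172.3 in D257A mice and 1409.7, 1222.6, 1657.2, 1405.8 and 1713.1 in WT mice. The genotypes did not overlap, but the log2 difference of -0.36 (95% interval -0.62 to -0.11) did not pass (limma adjusted p = 0.0786). It passed without WT mouse 1-13M, the lowest of the WT mice for this gene (-0.43, limma adjusted p = 0.0147). Crot, which attaches shortened chains to carnitine for their export, had signals of 1785.8 to 2575.3 in D257A mice and 1007.5 to 2217.5 in WT mice. Its log2 difference of 0.47 (95% interval 0.09 to 0.85, limma adjusted p = 0.126) passed without WT mouse 3-18M (0.59, limma adjusted p = 0.0464). Without 1-13M, its lowest WT mouse, it was 0.31 (limma adjusted p = 0.126).

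The other genes of this group had smaller differences. Acox3, an oxidase for branched chains, had a log2 difference of -0.31, Ehhadh and Hsd17b4, the bifunctional enzymes of the hydration and dehydrogenation steps, had -0.32 and -0.15, and Acaa1a, the thiolase, had 0.01, each on the brightest probe set. The 95% interval for Hsd17b4 ran from -0.37 to 0.07 and for Ehhadh from -0.71 to 0.06. For Acox3, whose mean log2 signal of 6.32 was close to the filter at 6.265, it ran from -0.80 to 0.18. Both tested probe sets of Acaa1a are of the type that can also detect related transcripts. The 4 probe sets of Scp2, a thiolase and sterol carrier, had differences from -0.26 to 0.12, and Pecr, which reduces enoyl chains, had 0.23 (limma adjusted p = 0.263).

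The ether lipid genes encode Gnpat and Agps, the acyltransferase and synthase of the first steps. Gnpat had signals of 4270.0, 4340.7, 3767.0, 4240.8 and 3773.3 in D257A mice and 3525.7, 3055.8, 3754.0, 3487.1 and 2837.6 in WT mice. Every D257A mouse lay above every WT mouse, by a margin of 3767.0 against 3754.0 at the nearest, and the log2 difference of 0.30 (95% interval 0.07 to 0.52) did not pass (limma adjusted p = 0.105). It passed when each array was centred on its median (0.43, limma adjusted p = 0.0280), a setting that moves the median of all tested probe sets to 0.10. Among mice numbered 2 and with the digit block it was 0.17 (limma adjusted p = 0.356 and 0.478). Agps had differences of 0.03 and -0.05. Dhrs4, a carbonyl and retinal reductase of the peroxisome, had signals of 968.3, 979.7, 1122.6, 1086.2 and 1085.7 in D257A mice and 1523.2, 1385.4, 1293.0, 1686.9 and 1145.7 in WT mice on its brightest probe set. These did not overlap, with a log2 difference of -0.41 (95% interval -0.68 to -0.15, limma adjusted p = 0.0596), which passed without WT mouse 1-13M (-0.42, limma adjusted p = 0.0391) and without WT mouse 3-18M (-0.48, limma adjusted p = 0.0268).

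Among the peroxins, Pex11a differed between its probe sets. On the dimmer one the signals were 406.2, 528.0, 433.7, 404.7 and 355.3 in D257A mice and 860.6, 969.6, 862.0, 722.8 and 700.1 in WT mice. The genotypes were well apart, with means of 425.6 ± 63.8 and 823.0 ± 111.3 (SD, n = 5 each) and a log2 difference of -0.95 (standard error 0.14, limma adjusted p = 0.00208). This call held under all 21 alternatives, and among mice numbered 2 the difference was -0.90 (limma adjusted p = 0.0131).

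On the brighter probe set of Pex11a the signals were 684.7, 495.9, 557.5, 502.3 and 477.2 in D257A mice and 712.1, 718.6, 641.6, 820.5 and 590.5 in WT mice. D257A mouse 2-17M lay among the WT mice. The log2 difference was -0.36 (95% interval -0.66 to -0.06, limma adjusted p = 0.135). The log2 ratio of the brighter to the dimmer probe set averaged 0.35 in D257A mice (-0.09 to 0.75) and -0.24 in WT mice (-0.43 to 0.18), a difference of 0.59 (2-sided exact permutation p = 0.0159, where the smallest possible is 0.00794). This comparison was chosen after the values were seen.

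Pex11a is also a neighbour of the targeted gene: in RefSeq, 4 protein-coding genes lie between it and Polg on mouse chromosome 7, and the D257A allele and DNA linked to it cannot be told apart. The 3 tested probe sets of Polg had log2 differences of 0.09, 0.23 and 0.85 and were not called (limma adjusted p = 0.768, 0.422 and 0.180). Since the allele is a substitution, the level of Polg does not check the genotype labels.

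The other 11 peroxins had 0 of 21 probe sets called by limma (4 lower and 0 higher at an unadjusted p under 0.05, 3 and 0 by the methods' t-test). The import receptor Pex5, which binds most matrix enzymes, had log2 differences of -0.34 and -0.75 on its 2 probe sets, the second with a 95% interval of -1.26 to -0.24 (limma adjusted p = 0.0715). Pex7, the receptor for the few enzymes with an N-terminal signal, Phyh, Agps and thiolase among them, had -0.27 (95% interval -0.56 to 0.01, limma adjusted p = 0.235), which passed without WT mouse 1-13M (-0.38, limma adjusted p = 0.0294). Of the docking proteins, Pex14 had -0.46 (95% interval -0.86 to -0.05, limma adjusted p = 0.157) and Pex13 had 0.09 and -0.21. The RING finger proteins Pex2 and Pex10, which ubiquitinate the receptor, had -0.04, -0.05 and 0.11.

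The ATPase Pex6, which extracts the receptor, had differences from -0.39 to -0.04 on its 5 probe sets, and Pex26, its membrane anchor, had 0.03. Among the proteins that insert membrane proteins, Pex3 had 0.03 and -0.24, the brighter probe set of Pex16 had means of 472.0 and 474.9 in D257A and WT mice, and Pex19, the chaperone for membrane proteins, had -0.38, -0.48 and -0.13. The 95% interval for the brightest Pex19 probe set ran from -0.72 to -0.05 (limma adjusted p = 0.153), and WT mouse 3-18M, at 1950.3, lay below all D257A mice (2111.8 to 2428.1), whose values were otherwise below the other WT mice (3138.2 to 3877.9). Without that mouse the difference was -0.54 (limma adjusted p = 0.00860).

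**Figure D2:**
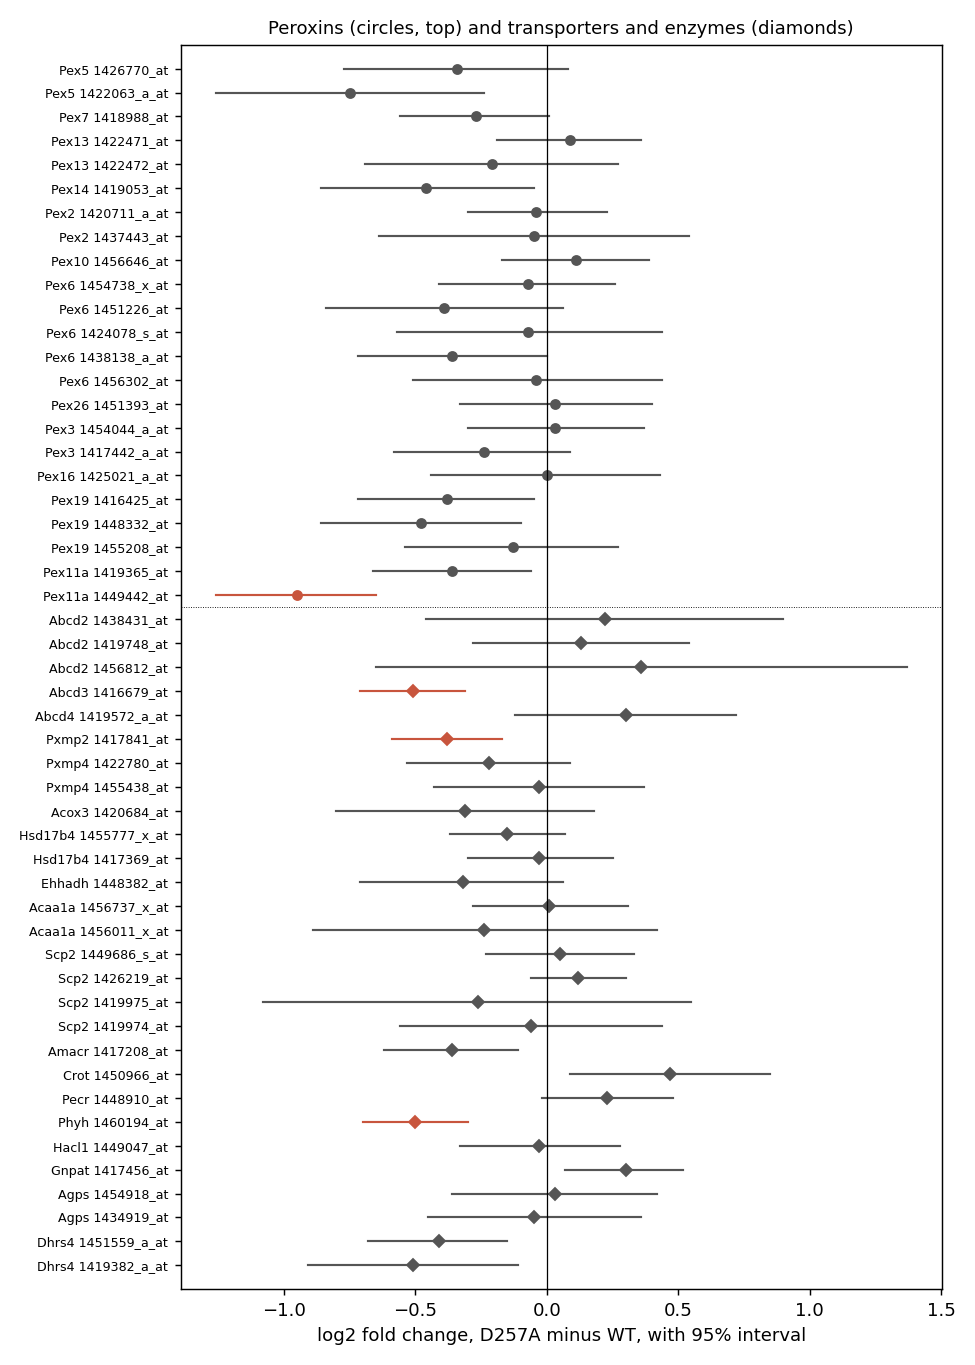
Log2 fold change, D257A minus WT, with its 95% interval for the 51 member probe sets tested, 23 of peroxins above the dotted line and 28 of transporters and enzymes below it. The 4 red ones were called lower at an adjusted p under 0.05, and the rest, in grey, were not called.

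Set side by side, the 12 peroxin genes had a median log2 difference of -0.05 (from -0.46 to 0.11, 8 of 12 negative) and the 18 transporters and enzymes one of -0.09 (from -0.51 to 0.47, 10 of 18 negative), where all 11215 tested genes had -0.01 and 51.44% were negative. Over probe sets the medians were -0.21 (19 of 23 negative) and -0.04 (17 of 28 negative), beside -0.03 and 53.72% for all tested. The order of the classes thus turned with the choice of probe set, and their difference was not tested. When each array was centred on its median both gene medians were positive (0.08 and 0.04) and so was that of all tested probe sets (0.10). Relative to the median of all tested probe sets, they were -0.02 and -0.06 with and without the scaling and after that centring. These settings multiply each array by 1 factor, so the relative values could not differ between them. They were -0.06 and -0.09 after quantile normalization and -0.11 and -0.07 with the digit block. With no filter on mean signal they were 0.03 and -0.01.

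By limma 0 of 12 peroxin genes were called lower and 0 higher (3 and 0 at an unadjusted p under 0.05, 1 and 0 by the methods' t-test). The 0 lower depends on which of the nearly equal Pex11a probe sets stands for the gene. Of the 18 transporters and enzymes, 3 were called lower and 0 higher (5 and 2 unadjusted, 6 and 3 by the methods' t-test). These counts moved with single mice. Without WT mouse 1-13M, 1 peroxin and 5 transporters and enzymes were called lower, and 7 of the 51 member probe sets were called. Calls over all 22518 probe sets rose as well in that fit, from 1662 to 3428. Without WT mouse 3-18M, 11 of the 51 were called, 10 lower and 1 higher, and 1786 of all 22518. With the digit block 0 peroxins and 0 transporters and enzymes were called lower, and 562 of all 22518 probe sets were called. Of the 51, 6 had every D257A mouse below every WT mouse and 1 had the reverse, where 3.77% and 3.94% of all tested probe sets did. Of the 14 genes with several tested probe sets, 9 had a single sign, and the probe sets of a gene spread over 0.01 to 0.59 with a median of 0.26.

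The median over genes was also taken in each mouse, relative to the mean of all 10 mice. For peroxins it was -0.099 to -0.02 in the D257A group and 0.087 to 0.136 in 4 WT mice, while WT mouse 3-18M was at -0.103, below every D257A mouse. For transporters and enzymes it was -0.121 to 0.035 in the D257A group and 0.007 to 0.193 in the WT group. Here 3-18M was the highest WT mouse, and D257A mouse 2-17M overlapped the WT mice. Over the 51 probe sets, 3-18M was the lowest WT mouse on 19 and the highest on 14, and 1-13M was the lowest on 15 and the highest on 15.

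**Figure D3:**
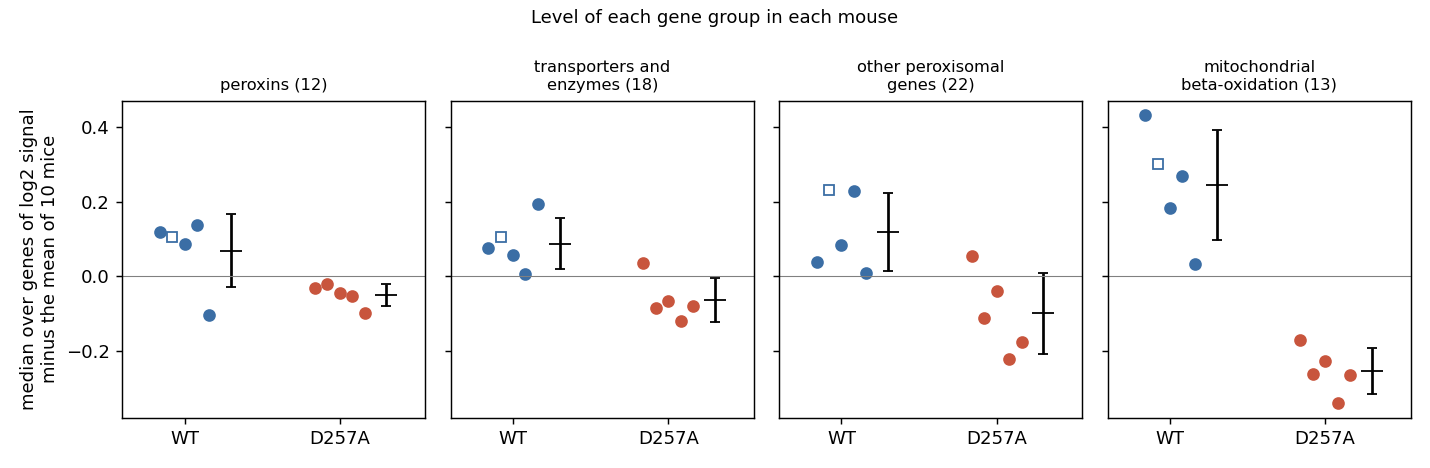
Median over the genes of each group of log2 scaled signal, relative to the mean of all 10 mice, in each of 5 WT and 5 D257A mice, with mean and SD and with WT mouse 1-13M as an open square. The genotypes overlap for peroxins through WT mouse 3-18M (-0.103), and they are apart for mitochondrial beta-oxidation (-0.34 to -0.17 in D257A mice, 0.034 to 0.432 in WT mice).

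Further genes of the organelle and of its partners were read from lists. Of 40 other peroxisomal genes, 33 had a probe set and 22 were tested. Of these 3 fell and 0 rose by limma, where 3.52% of all 11215 tested genes fell and 3.71% rose. The median log2 difference was -0.29, with 17 of 22 negative. At an unadjusted p under 0.05 by limma, Pex11g, Decr2, Ech1, Far1, Nudt7, Cat, Gstk1 and Ephx2 were lower. Of the 22, 1 was higher by limma and 1 by the methods' t-test, whose lower count is not given. Nudt7, a hydrolase of peroxisomal coenzyme A, had signals of 1840.3, 1626.5, 1727.0, 1371.4 and 1499.2 in D257A mice and 3043.7, 1967.0, 2070.1, 2426.7 and 2811.3 in WT mice, which did not overlap. Its log2 differences were -0.60 and -0.81 (limma adjusted p = 0.0211 and 0.00661). The first of these was lost under 8 of 21 alternatives (limma adjusted p up to 0.177 with the digit block), among them those that left out 2-27M or 2-30M of the D257A group or 1-12M or 2-32M of the WT group. The second was called under all 21.

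Catalase (Cat), which removes the hydrogen peroxide that the oxidases make, had signals of 3126.3 to 5026.6 in D257A mice and 6362.3 to 10788.0 in WT mice. It fell by 1.03 on the log2 scale (limma adjusted p = 0.00212), and its second probe set by 0.91, a call lost with the digit block (-0.63, limma adjusted p = 0.0682). By RT-PCR the paper found no genotype difference in Catalase mRNA, in skeletal muscle of younger mice. What sets the 2 measurements apart was not tested. Ephx2, a soluble epoxide hydrolase, had -0.54 (limma adjusted p = 0.0419), a call lost under 14 of 21 alternatives, 7 of which each leave out 1 mouse (each D257A mouse and WT mice 1-12M and 2-32M). Dimmer probe sets of Lonp2, a peroxisomal protease, and Idh1, an NADPH-producing dehydrogenase, were called at -1.20 and 0.51 (limma adjusted p = 0.00552 and 0.0452). Their brightest probe sets were not (-0.09 and 0.54, limma adjusted p = 0.665 and 0.0761). The called probe set of Lonp2 is of the type that can also detect related transcripts, and the dimmest tested one had 0.24 (limma adjusted p = 0.566). The call of Lonp2 was lost among mice numbered 2 and with the digit block (-0.76, limma adjusted p = 0.0820 and 0.109), and that of Idh1 under 13 of 21 alternatives. Without WT mouse 1-13M, 7 of the 22 genes were called lower, in a fit that called 3428 of all 22518 probe sets. When any of 2-27M, 2-30M, 1-12M and 2-32M was left out, 1 of the 22 was called lower.

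Mitochondrial beta-oxidation, which takes the products of the peroxisome, had 9 of 13 tested genes lower and 0 higher by limma, beside 3.52% and 3.71% of all tested genes. All 13 were negative, with a median of -0.45 (11 lower and 0 higher at an unadjusted p under 0.05, 10 and 0 by the methods' t-test). Acads, the short-chain acyl dehydrogenase, was at -1.18 and Slc25a20, the carnitine carrier of the inner membrane, at -0.72 (limma adjusted p = 0.00198 and 0.00197). The calls of mitochondrial beta-oxidation genes were not followed under the alternatives. Of the 6 regulators tested 2 fell, Ppara and the coactivator Ppargc1b, and 0 rose (2 lower and 0 higher at an unadjusted p under 0.05, 2 and 0 by the methods' t-test). The 3 probe sets of Ppara were at -0.94, -1.73 and -1.60 (limma adjusted p = 0.00339, 7.53e-04 and 9.10e-04), with no overlap of the genotypes on any. Ppargc1b was at -0.91 (limma adjusted p = 0.0248), a call lost under 9 of 21 alternatives (limma adjusted p up to 0.141 with the digit block), among them those that left out 2-25M, 1-12M, 2-3M or 2-32M. These lists hold different numbers of genes, and no difference between lists was tested.

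**Figure D4:**
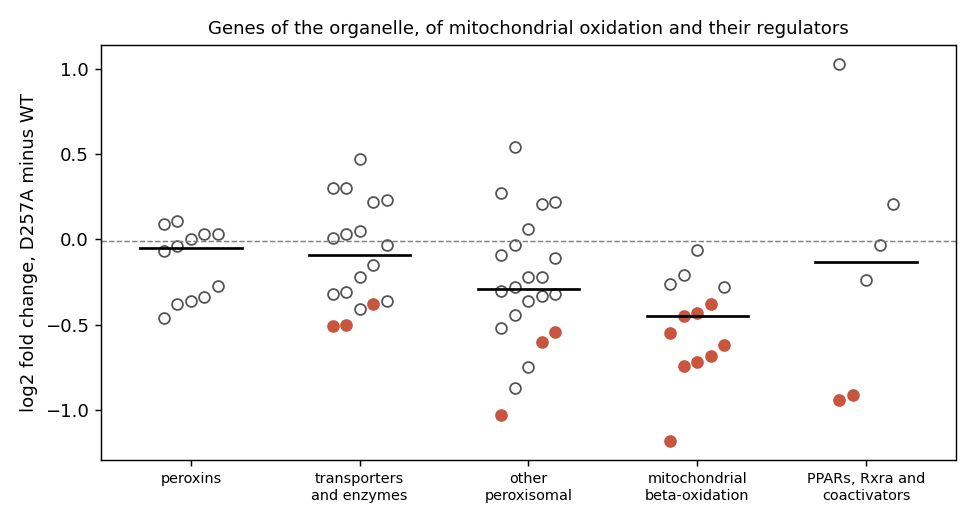
Log2 fold change, D257A minus WT, of each tested gene (brightest probe set) in 5 lists, with the median of each list as a black line and the median of all tested genes (-0.01) as a dashed line. Filled red points were called at an adjusted p under 0.05: 0 of 12 peroxins, 3 of 18 transporters and enzymes, 3 of 22 other peroxisomal genes, 9 of 13 genes of mitochondrial beta-oxidation and 2 of 6 regulators.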

How the data were processed

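The deposited files hold a linear intensity for each probe set on each array, which the authors made from the array images with GCOS 1.3 per the labels. The methods state a scaling target of 500, but the trimmed means (2% left out at each end) of the deposited intensity values were 93.4 to 129, so each array was multiplied to reach 500 and log2 was taken. Arrays correlated at 0.907 to 0.926, and 0 pairs were identical. The number of arrays limits the precision. AFFX controls (64) were set aside, and the 22518 probe sets above the median mean log2 signal (6.265 or more) were fitted by lmFit and eBayes of limma 3.58.1 (R 4.3.3), with a trend and no covariate, with Benjamini-Hochberg adjustment over all of them. The fit was tested on simulated data. Probe sets naming 1 gene numbered 34958, several genes 932 and none here 9211, and 2 naming a member among several genes were left out. A gene is its brightest probe set. Members and lists were chosen with earlier results of these data known. Named were all members, with every mouse for called genes and for those whose probe sets disagreed. Up to 6 called other peroxisomal genes and up to 3 called genes of the other lists were named too. Amacr, Gnpat, Dhrs4, Lonp2 and Idh1 were added after their values were seen, as were other peroxisomal genes lower only at an unadjusted p. Alternatives were other normalizations, filters, variance models and offsets, the methods' t-test, array weights, the first digit of the mouse numbers as a block, the mice numbered 2 alone, and each mouse left out. Python 3.11.15 with SciPy 1.17.1 made the tables. Protein sequences were not used here.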

Additional observations from a re-analysis of the deposited data

Results flagged for a closer look

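Each of the 51 tested member probe sets was examined for a mouse far from the other mice of its genotype, in 102 groups of 5 mice. Of these, 11 held such a mouse, where chance gives about 1 in 20, and the groups are not independent, since they share mice and genes. For the second-brightest probe set of Pex6, D257A mouse 2-21M had a signal of 611.5, where the other D257A mice had 456.3 to 484.3. For the brightest probe set of Pex3, WT mouse 3-18M had 952.5, where the others had 568.8 to 627.4. For the second-brightest of Pex19, D257A mouse 2-17M had 631.8 against 1002.6 to 1099.5, and WT mouse 3-18M had 958.1 against 1400.9 to 1545.5. For the dimmer of Dhrs4, WT mouse 3-18M had 612.4 against 1001.0 to 1200.6. For Abcd2, WT mouse 1-13M had 358.1 against 1032.5 to 1397.4 on the brightest probe set and 76.29 against 358.9 to 593.0 on the dimmest tested one. This mouse also had the lowest summed adipocyte markers (14909.6, mostly Fabp4), and their part in its Abcd2 signal was not tested. For Scp2, D257A mouse 2-17M had 159.0 against 769.3 to 891.4 on its next-to-dimmest probe set, and WT mouse 2-32M had 109.4 against 193.0 to 236.9 on the dimmest. For Phyh, D257A mouse 2-17M had 4151.9 against 3409.4 to 3599.4, and for Hacl1 the same mouse had 373.2 against 308.5 to 324.8.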

How the results depend on the processing

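The dimmer Pex11a probe set was called under all 21 alternatives, and Abcd3 and Phyh under 20 of 21, lost only when the first digit of the mouse numbers was a block (limma adjusted p = 0.0700 and 0.0635). No paired analysis was possible because the replicate numbers only name the mice in order of listing and no label pairs mice across genotypes. That digit block, whose meaning is not stated, left 0 transporters and enzymes lower and 1 member probe set called, with a peroxin median of -0.15. It takes the genotype difference from the mice numbered 2, since the other digits occur only in WT mice. Among mice numbered 2, 1 peroxin was lower and the median was -0.15. Array weights called 12 member probe sets, with 2 peroxins, 5 transporters and enzymes and 7 other peroxisomal genes lower, and 1 transporter or enzyme and 1 other peroxisomal gene higher. Centring on the median gave 1 transporter or enzyme higher, 1 other peroxisomal gene lower and 1 higher, and medians of 0.08 (peroxins) and 0.04 (transporters and enzymes). Without scaling the medians were -0.13 and -0.16. With the mean of all probe sets of a gene, 1 peroxin was lower and the median was -0.14, and by the methods' t-test 1 other peroxisomal gene was lower. Leaving out each mouse in turn gave 0 to 1 peroxins lower, 2 to 5 transporters and enzymes lower and 0 to 1 higher, 1 to 7 other peroxisomal genes lower and 0 to 1 higher, 3 to 11 member probe sets called, and medians of -0.13 to -0.02 (peroxins) and -0.13 to -0.05 (transporters and enzymes). The brightest Abcd2 probe set turned from 0.22 to -0.11 with the digit block and among mice numbered 2, and ranged from -0.13, without WT mouse 1-13M, to 0.37 as each mouse was left out. Over all probe sets 50.72% of calls were lower, 70.63% without scaling (856 lower, 356 higher) and 20.72% after centring (418 and 1599). Calls in all numbered 1662, 3968 with array weights, 562 with the digit block and 3428 without WT mouse 1-13M. The cause of these changes was not tested. With 5 mice per genotype, the number of arrays limits what could be called.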
